A study of Mus musculus with 20 samples.

Results

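The matrix metalloproteinases (Mmp), the tissue inhibitors of metalloproteinases (Timp) and the secreted Adamts proteases were examined in the translatome of epididymal adipocytes. The members were taken by name, as the protein-coding genes of the count table whose symbol is a family name followed by a number. This rule uses no measured value, but it was set with earlier results of these data known. This gave 44 genes (21 Mmp, 4 Timp and 19 Adamts) of 21596 protein-coding genes and of 46078 genes in all. Of these, 39 (17 Mmp, 4 Timp and 18 Adamts) passed the filter on low counts and were tested. The 5 others were Mmp10, Mmp1b, Mmp20, Mmp24 and Adamts13, which had counts in 1 to 8 of the 20 libraries and between 2 and 31 counts in all.

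Matrix metalloproteinases are zinc-dependent enzymes, made as inactive precursors, that cleave collagens and other proteins outside the cell or at its surface. Adamts proteases are secreted relatives with thrombospondin-type repeats, and their members trim procollagens or cut large proteoglycans such as versican and aggrecan. Timps are secreted inhibitors that occupy the active site of metalloproteinases, and adipose tissue that grows on a high-fat diet is known to rebuild the collagen around its fat cells and vessels with these enzymes.

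The mice were male AdipoERCre x NuTRAP animals, on a background the labels write as C576BL6. A Cre under the Adipoq promoter, which is active in adipocytes and needs tamoxifen, switches on a GFP-tagged ribosomal protein, so that ribosome-bound mRNA can be pulled from a lysate of the frozen depot and sequenced (TRAP–seq). Every mouse, the chow controls included, had been given tamoxifen by gavage at 4 to 5 weeks of age, 2 weeks before the diets began. In the short arm, with 3 mice in each group, C mice (chow) and H mice (12 weeks of high-fat diet, HFD) were 18 weeks old, and CC_s mice (chow) and HC mice (12 weeks of HFD, then 8 weeks of chow for weight loss, WL) were 26 weeks old. In the long arm, with 2 mice in each group, CC_l mice (chow) and HH mice (25 weeks of HFD) were 31 weeks old, and CCC mice (chow) and HHC mice (25 weeks of HFD, then 8 weeks of chow) were 39 weeks old. Each library was 1 mouse. The comparisons ask how the genes of matrix proteolysis differed under HFD and after WL, each group against the chow group of its own age.

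The libraries held 10710277 to 36738954 counts on genes, and the members took 0.13% to 0.28% of them. Levels are given as TMM-scaled CPM, which sets each count against the size of its library, and a level of 3 counts in a library corresponded to 0.0815 to 0.251 CPM, the least that was read as present. Of the counts above 0, 74.4% to 89.2% in each library were even numbers, as when both reads of a pair are counted, so that 3 counts may stand for fewer than 2 fragments. How pairs were counted is not given in the sources used here, and a fit on halved counts was therefore among the alternatives. All 10 adipocyte markers on the list used here (among them Adipoq and Plin1) had counts in every library. Their summed level was 29600 and 32900 CPM in C 2 and C 1 against 134000 in C 3, and 19200 CPM in HC 3 against 80300 and 82200 in HC 1 and HC 2. Markers of the neighbouring epididymis reached 1820 CPM in C 1 and 1050 CPM in H 2, and spermatid genes 3460 CPM in CC_l 1 and 525 CPM in HC 3. The libraries were made without strand information, so reads of a member and of a gene on the opposite strand cannot be told apart where exons overlap, as they do for Timp3 and Syn3 over 1733 bases, for Adamts9 and A730049H05Rik over 1381 bases and for Mmp19 and Tmem198b over 789 bases. In tissue lysates, fewer cells of a type and less RNA per cell cannot be told apart.

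Levels of different genes were compared per length of exon (CPM per kb). Over the 20 libraries, Timp4 (119 CPM per kb) and Timp2 (64.8 CPM per kb) had the highest mean levels of all members, followed by Adamts5 (48.9 CPM per kb), a protease that cuts aggrecan and versican. Then came Mmp23 and Mmp14 (both 12.3 CPM per kb), Timp1 (12.2), Adamts1 (11.3), Mmp2 (10.6), Mmp3 (9.09), Mmp7 (7.6), Adamts2 (7.3) and Timp3 (5.91 CPM per kb). The means from Mmp23 to Mmp2 lay close together beside the spread between libraries, and their order is not a ranking. The order at the top also differed between groups. In H, Timp2 (72.4 ± 25.4 CPM per kb), Timp4 (68 ± 39.2) and Adamts5 (67.4 ± 1.88 CPM per kb, SD, n = 3) lay within their spread. In HH, Timp2 (106 ± 17.6 CPM per kb) and Adamts5 (72.6 ± 18.9) had the highest means. Mmp3 (54.4 ± 60.8), Timp1 (47 ± 22.4), Timp4 (46 ± 34.2) and Mmp2 (45.4 ± 19.7 CPM per kb, SD, n = 2) followed. The Mmp3 mean came from 11.4 CPM per kb in HH 1 and 97.4 in HH 2. At the other end of the tested members, Adamts16, Adamts17, Adamts19, Mmp16, Mmp25 and Mmp8 had mean levels of 0.016 to 0.0523 CPM per kb.

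Members of all 3 families were called higher under HFD, and fewer members were called after WL. Of all genes, too, fewer were called after WL (1.74% in HC and 3.12% in HHC) than under HFD (6.49% in H and 6.79% in HH). A member counts as called where edgeR's quasi-likelihood test gave it an unadjusted p below 0.01 and a log2 fold change of 1 or more in either direction, the thresholds of the study. In H against C, 8 members were called higher and 2 lower, where 3.57% of the 21464 genes tested were called higher and 2.92% lower. In HC against CC_s, 3 were called higher and none lower (1.57% and 0.172% of genes). In HH against CC_l, 10 were called higher and none lower (4.92% and 1.88% of genes), and in HHC against CCC none was called higher and 4 lower (0.447% and 2.67% of genes). The balance of all genes moved with the scaling: in HHC, 96 were called higher and 573 lower with TMM but 156 and 421 with RLE, in H 766 and 626 in edgeR but 928 and 1235 in DESeq2, and in HH 1055 and 403 in edgeR but 1399 and 910 in DESeq2. DESeq2 also called no member lower in HC or HH and none higher in HHC. A Benjamini-Hochberg adjusted p under 0.05 over all tested genes, in the same edgeR test, was reached by 2 members in H (2.12% of genes), 7 in HH (2.07%) and none in HC or HHC (0% of genes in both). In HC and in HHC, 7 members each had a nominal p under 0.05 in edgeR, for which the share of all genes was not counted. DESeq2 gave 1 of 31 members in HC and 1 of 35 in HHC an adjusted p under 0.05. Among all genes it gave this to 271 in HC and 442 in HHC.

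The mice's own values leaned the same way as the calls in each comparison. The numbers of members separated did not follow the numbers called. They cannot be compared between the arms, because groups of 2 mice separate more readily than groups of 3. In 14 of the 39 tested members the 3 H mice all lay above the 3 C mice and in 3 they all lay below, where 13.4% and 10.5% of genes were separated in this way. For HC the counts were 10 above and 2 below (8% and 5.82% of genes). For HH they were 22 above and 2 below (26.4% and 28.9% of genes), and for HHC 1 above and 18 below (8.49% and 20.3% of genes). Median log2 fold changes of the tested members were 0.48 in H, 0.64 in HC, 1.04 in HH and -1.17 in HHC, where those of all genes were -0.154, 0.269, -0.229 and -0.0568. With members that had a group at 0 set to their bound, or to no change where none could be given, the medians were 0.32, 0.61, 1.04 and -0.99. No bound could be given for Mmp8 and Mmp25 in H, Adamts17 in HC and Mmp8 in HHC. The heat map of the tested members shows these values gene by gene.

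**Figure D1:**
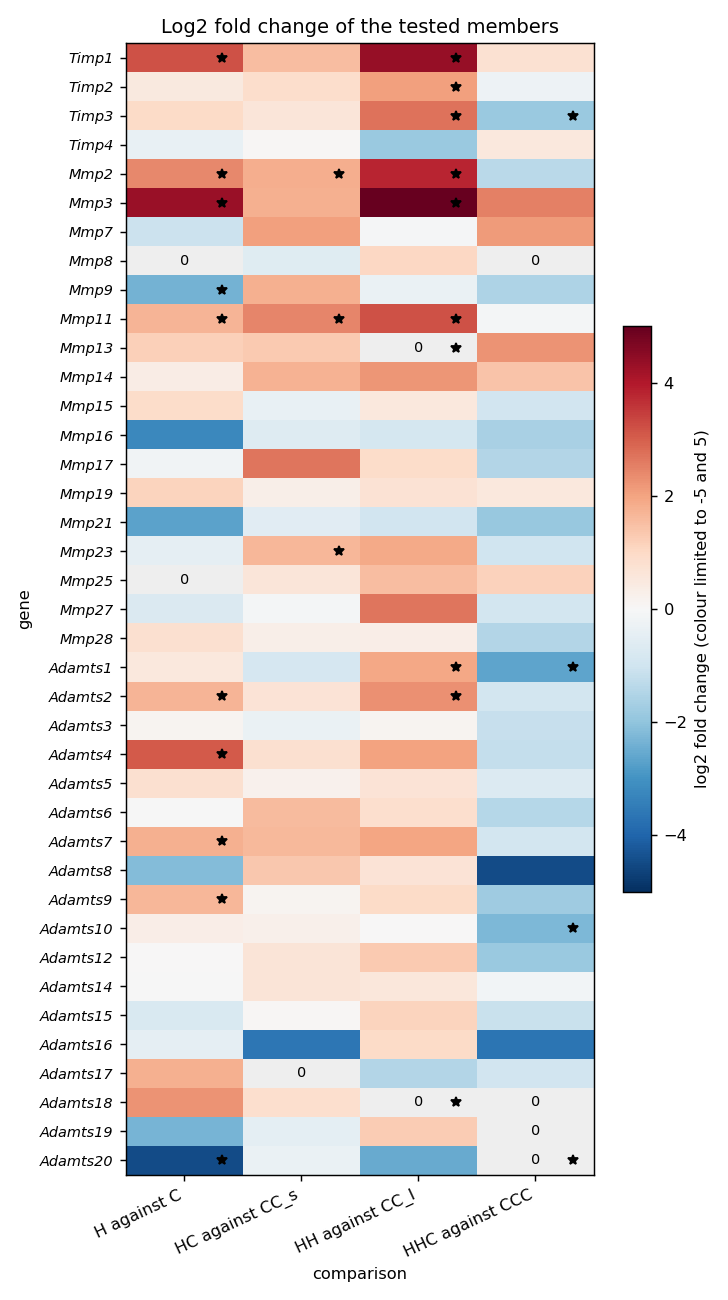
Log2 fold change (colour, limited to -5 and 5) of the 39 tested members in each comparison with its chow group, with 3 mice a group in H and HC and 2 mice a group in HH and HHC. A star marks a called member, and a grey cell with 0 a member for which 1 of the 2 groups was at 0 in every library; stars stand in 10 cells for H, 3 for HC, 10 for HH and 4 for HHC.

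Markers of other cell types moved in the same comparisons. The summed level of 10 macrophage markers was 221 to 393 CPM in C and 672 to 4170 CPM in H, 202 to 264 in CC_s and 583 to 1690 in HC, 212 and 441 in CC_l and 4140 and 5220 in HH, and 907 and 838 in CCC against 1660 and 880 CPM in HHC. Of these markers 7 were called higher in H, 7 in HC, 10 in HH and none in HHC. The summed level of 8 endothelial markers was 315 to 788 CPM in C and 1520 to 2050 in H, 172 and 201 in CC_l and 912 and 1740 in HH, and 289 and 597 in CCC against 107 and 119 CPM in HHC, and it overlapped between CC_s (199 to 1080) and HC (225 to 1120 CPM). Of these, 4 were called higher in H, 8 in HH and none in HC, and 2 were called lower in HHC. Of 10 markers of adipocyte progenitors and fibroblasts, 3 were called higher in H, 1 in HC and 6 in HH, and 1 lower in HHC. Their summed level nevertheless lay lower in H (3600 to 5930 CPM) than in C (6080 to 12100 CPM), with Pi16 and Gsn at log2 fold changes of -1.7 and -1.69 that were not called beside Lum (2.26), Fbn1 (2.18) and Cd34 (1.83), which were called higher. The sum lay higher in HH (9430 and 9540 CPM) than in CC_l (3250 and 5700 CPM), and it overlapped between HC (4900 to 6690 CPM) and CC_s (4600 to 7640 CPM) and between HHC (3910 and 9920 CPM) and CCC (4440 and 10400 CPM). All markers on these 3 lists had counts in every library. The smooth muscle and pericyte list had 2 of 8 markers called higher in HH and none elsewhere, and the mesothelial list 3 of 7 called lower in H and 1 in HHC. The neutrophil markers, of which 5 of 9 were tested and Ly6g and Ngp were at 0 in most libraries, summed to 3.62 to 9.94 CPM in C, 54 to 232 CPM in H, and between 4.17 and 117 CPM in the other groups, and 1 of them was called higher in H. Of 8 markers of lipid-associated macrophages, 5 were called higher in H, 4 in HC and 2 in HH. Of the adipocyte markers 1 was called higher and 1 lower in H and 1 lower in HH. Their summed level nevertheless lay lower in HH (28600 and 33800 CPM) than in CC_l (62100 and 66700 CPM). It also lay lower in HC (19200 to 82200 CPM) than in CC_s (83700 to 117000 CPM), and it overlapped in H and in HHC. Of the epididymal markers 2 were called higher in H and of the spermatid genes 5 in HC. The part of these cell types in the values of the members was not tested.

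Timp1, a broad inhibitor that tissues induce on injury (chromosome X, 20870166 to 20874735, mm10), was the inhibitor with the largest difference. It stood at 3.81, 2.48 and 1.16 CPM in the C mice and at 13.8, 47.2 and 6.52 CPM in the H mice. In the long arm it stood at 1.52 and 2.62 CPM in CC_l and at 27.7 and 55.8 CPM in HH. All HFD mice lay above all chow mice of their age, with H 2 and HH 2 highest. In edgeR, the log2 fold change was 3.18 (SE 0.818, adjusted p = 0.0522) in H and 4.34 (SE 1.06, adjusted p = 0.0418) in HH. Without H 2 the H value was 2.03 and no longer called, and without CC_l 1 the HH call was lost, at 4.00. Of the H mice, H 2 had the most macrophage (4170 CPM), endothelial (2050 CPM) and epididymal (1050 CPM) marker RNA. The part of this RNA in the Timp1 value was not tested.

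After WL, the fitted log2 fold changes of Timp1 were smaller than under HFD. In edgeR, the WL effect did not differ from the HFD effect at an adjusted p under 0.05 (0.605 in the short arm, 0.21 in the long arm). The HC mice had 2.75, 3.13 and 10.4 CPM against 2.51, 0.655 and 2.41 CPM in CC_s, so that the groups were separated with HC 1 close to CC_s 1. The HHC mice had 14.6 and 5.28 CPM against 8.84 and 2.85 CPM in CCC, and these groups overlapped. Neither difference was called, with log2 fold changes of 1.55 (SE 0.784, adjusted p = 0.581) in HC and 0.76 (SE 0.929, adjusted p = 0.81) in HHC.

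Timp2, which also takes part in the activation of pro-Mmp2 at the cell surface, differed in HH. It stood at 95.7 and 106 CPM in CC_l and at 365 and 462 CPM in HH, which did not overlap. On the log2 scale, the fold change was 2.04 (SE 0.615, adjusted p = 0.0975), and the call was lost without CC_l 1, CC_l 2 or HH 2, and with the replicate number as a block. In the other comparisons Timp2 was not called. Its values were 248, 239 and 119 CPM in C against 233, 396 and 217 CPM in H, 188, 189 and 157 CPM in CC_s against 161, 231 and 592 CPM in HC, and 183 and 391 CPM in CCC against 316 and 163 CPM in HHC. Each of these pairs of groups overlapped.

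Timp3, the inhibitor that stays bound to the matrix and that also inhibits Adam17 and several Adamts proteases, was higher in HH and lower in HHC. Its level was 17.5 and 21.5 CPM in CC_l, 193 and 66 CPM in HH, 26.7 and 78.9 CPM in CCC and 9.38 and 19.8 CPM in HHC. HH 1 stood far above HH 2, and CCC 2 far above CCC 1. The fitted log2 fold change was 2.73 (SE 0.657, adjusted p = 0.0407) in HH and -1.85 (SE 0.638, adjusted p = 0.318) in HHC. Without HH 1 the HH value was 1.78 and the call was lost, and without HH 2 it was 3.33. Without CCC 2 the HHC value was -0.873, without HHC 1 its call was lost too, and it was also lost in DESeq2, with RLE scaling, when the fit held only the compared groups, with halved counts and with the block.

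In the short arm, Timp3 stood at 31.6, 49.9 and 17.5 CPM in C and at 68.8, 55 and 68 CPM in H, separated but not called (log2 fold change 0.95, SE 0.507, adjusted p = 0.353). The CC_s mice had 40.6, 24.2 and 29.9 CPM and the HC mice 27.4, 41.9 and 74.1 CPM, which overlapped. Syn3, in whose intron Timp3 lies on the opposite strand, shares exon sequence with it, and part of the reads may belong to Syn3.

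Timp4, known as the Timp of fat and heart, had the highest mean level over all libraries but not in H or HH, and it spread widely within groups. It stood at 234, 308 and 1010 CPM in C, 420, 160 and 621 CPM in H, 1270, 907 and 866 CPM in CC_s and 2020, 934 and 211 CPM in HC. In the long arm it stood at 901 and 1050 CPM in CC_l, 414 and 129 CPM in HH, 839 and 227 CPM in CCC and 243 and 1300 CPM in HHC. Only HH and CC_l did not overlap, and no comparison was called (log2 fold changes -0.37, 0.06, -1.85 and 0.53 in the order H, HC, HH and HHC, adjusted p = 0.864, 0.996, 0.361 and 0.896). The HC value changed sign with RLE scaling and in DESeq2. The libraries low in Timp4 were in part those low in adipocyte markers: HC 3 had 211 CPM of Timp4 and 19200 CPM of the 10 markers, and C 1 and C 2 had less of both than C 3. The HH mice likewise had less Timp4 and less of the 10 markers than the CC_l mice.

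**Figure D2:**
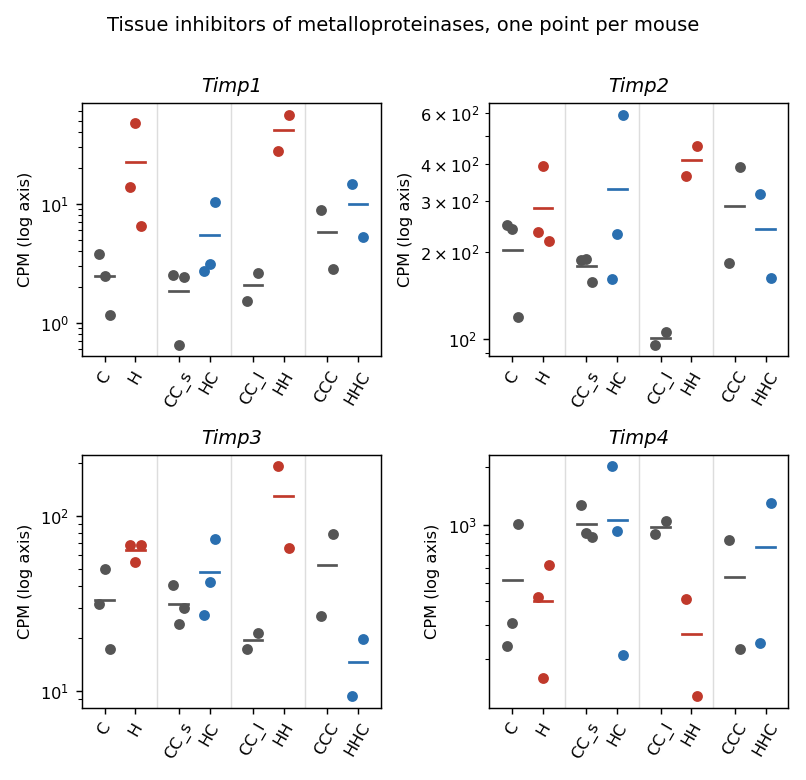
CPM (log axis) of the 4 Timp genes, 1 point per mouse and a line at the group mean, chow groups in grey, HFD groups in red and WL groups in blue. Timp1 of the H and HH mice (6.52 to 55.8 CPM) lies above that of the chow mice of their age (1.16 to 3.81 CPM), whereas Timp4 spreads over the same range in most groups.

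Because each Timp takes part in the same inhibition, their make-up was read per length. Timp4 held 74.7% to 84.5% of the summed CPM per kb of the 4 genes in CC_s and CC_l, but 35.6% and 42.7% in C 1 and C 2 and 25.3% in CCC 2, against 83.3% in C 3 and 70.2% in CCC 1. In H it held 14.4% to 59.6%, in HH 10.3% and 32.1%, in HC 17.2% to 87.7% and in HHC 29.5% and 81.4%. Timp1 held at most 4.91% in any chow mouse, and 4.16% to 28.1% in H and 14.3% and 29.7% in HH. After WL it held 0.794% to 5.61% in HC and 2.2% and 11.7% in HHC. Among chow mice alone the share of Timp4 spanned 25.3% to 84.5%, while the share of Timp1 was above 10% only in H 2, HH 1, HH 2 and HHC 1.

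**Figure D3:**
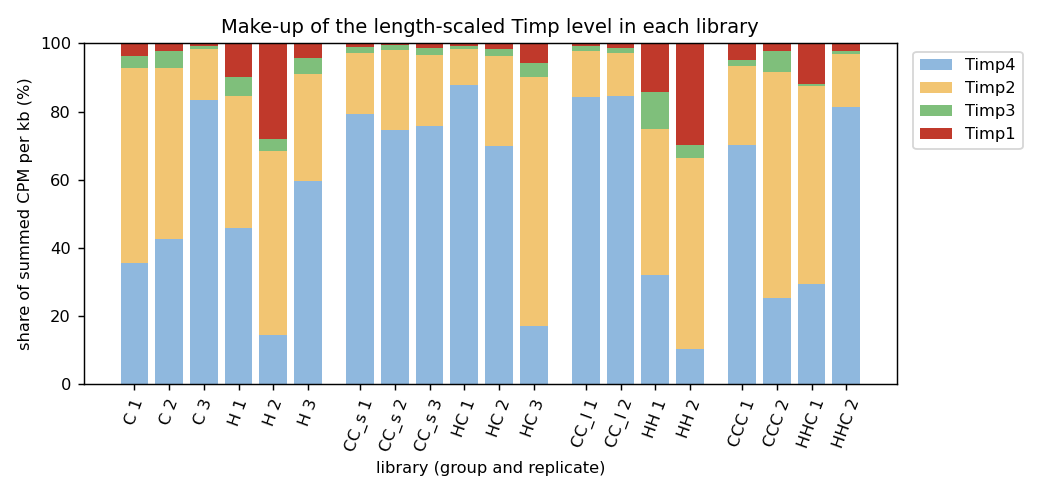
Share of each Timp in the summed CPM per kb of the 4 genes, 1 bar per library, bars of a comparison side by side. Timp4 takes from 10.3% (HH 2) to 87.7% (HC 1), and Timp1 takes more than 10% in H 2, HH 1, HH 2 and HHC 1.

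Of the gelatinases, which digest denatured collagen and the collagen of basement membranes, Mmp2 was called higher and Mmp9 lower in H, while after WL both were separated upwards in HC and both downwards in HHC. Mmp2 (chromosome 8, 92827291 to 92853420) stood at 10.8, 16.2 and 3.4 CPM in C and at 43.1, 97.4 and 18.5 CPM in H. It stood at 4.63, 9.34 and 10 CPM in CC_s and at 22.9, 25 and 37.6 CPM in HC, and at 8.27 and 13.9 CPM in CC_l and 106 and 200 CPM in HH. In each of these 3 comparisons the groups were separated and Mmp2 was called higher. In HHC, with 9.89 and 15.6 CPM against 21.3 and 43.9 CPM in CCC, the groups were separated the other way.

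The log2 fold change of Mmp2 was 2.39 (SE 0.603, adjusted p = 0.0491) in H, 1.83 (SE 0.594, adjusted p = 0.536) in HC, 3.79 (SE 0.784, adjusted p = 0.0253) in HH and -1.35 (SE 0.717, adjusted p = 0.524) in HHC. The HH call held with each mouse left out. The H value fell to 1.61 and was lost without H 2, and the HC call was lost without CC_s 1, CC_s 2, CC_s 3 or HC 3. Per length, Mmp2 rose from 3 ± 1.9 to 15.7 ± 12 CPM per kb in H (SD, n = 3) and from 3.29 ± 1.18 to 45.4 ± 19.7 CPM per kb in HH (SD, n = 2), beside 46 CPM per kb for Timp4 and 47 for Timp1 in HH.

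Mmp9, a gelatinase that leukocytes and osteoclasts make in quantity, was lower in H. It stood at 8.38, 3.47 and 3.22 CPM in C and at 0.912, 1.3 and 0.672 CPM in H, without overlap. Its log2 fold change was -2.37 (SE 0.656, adjusted p = 0.0693), and the call was lost without C 1 (-1.74) or H 3. In HC it stood at 1.72, 2.73 and 4.95 CPM against 0.529, 1.31 and 0.887 CPM in CC_s, separated upwards but not called (log2 fold change 1.77, SE 0.649, adjusted p = 0.536). The CC_l and HH mice overlapped (2.86 and 2.23 against 2.83 and 1.18 CPM), and HHC lay below CCC (2.85 and 2.05 against 5.73 and 8.56 CPM) without a call. The C mice stood above the CC_s mice throughout, so that the H and HC mice were set against different chow levels.

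The stromelysins Mmp3 and Mmp10 and the convertase-activated Mmp11 were read next. Mmp3, which cuts a wide range of matrix proteins and activates other Mmps, had the largest fitted fold change in HH of the members with counts in both groups. It stood at 1.96, 0.198 and 1.61 CPM in C and at 13.4, 56.6 and 5.85 CPM in H. It stood at 0.243 and 0.916 CPM in CC_l and at 20.6 and 176 CPM in HH. All HFD mice lay above the chow mice, and the HFD mice differed among themselves by several-fold.

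The log2 fold change of Mmp3 was 4.33 (SE 1.16, adjusted p = 0.0621) in H and 7.48 (SE 1.65, adjusted p = 0.0298) in HH. Without H 2 the H value was 2.93 and the call was lost. The HH call held without any 1 mouse, at 5.21 without HH 2 and between 6.74 and 8.65 without one of the others. After WL, Mmp3 stood at 2.82, 4.09 and 17.1 CPM in HC against 5.69, 0.901 and 0.507 CPM in CC_s, and at 6.87 and 9.69 CPM in HHC against 1.55 and 1.32 CPM in CCC. It was the only tested member whose HHC mice both lay above both CCC mice, but neither WL difference was called (log2 fold changes 1.77 in HC and 2.53 in HHC, adjusted p = 0.624 and 0.52). Of its 50-base words, 8.39% also occur in Mmp10, which had 4 counts in all libraries together.

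Mmp11 (stromelysin-3; chromosome 10, 75923222 to 75936496), which the convertase furin activates inside the cell, was called higher in 3 comparisons. It stood at 3.48, 7.34 and 3.76 CPM in C and at 16.3, 20.6 and 9.79 CPM in H, and at 3.04, 1.8 and 1.27 CPM in CC_s and 6.11, 11.2 and 16.4 CPM in HC. It stood at 3.04 and 3.4 CPM in CC_l and at 19.4 and 39.7 CPM in HH. Each of these groups lay wholly above its own chow group. In HHC (2.35 and 9.05 CPM) and CCC (4.18 and 7.9 CPM) the groups overlapped.

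The log2 fold change of Mmp11 was 1.68 (SE 0.561, adjusted p = 0.133) in H, 2.46 (SE 0.583, adjusted p = 0.473) in HC, 3.19 (SE 0.728, adjusted p = 0.033) in HH and -0.08 (SE 0.675, adjusted p = 1) in HHC, the last changing sign with RLE scaling and in DESeq2. The HC and HH calls held with each mouse left out, where the H call was lost without C 1, C 3, H 1 or H 2 and with RLE scaling. Mmp11 was 1 of 3 members called higher after 12 weeks of HFD and WL, beside Mmp2 and Mmp23, and the only one whose HC call no left-out mouse removed. Its exons share 155 bases with Chchd10 on the opposite strand.

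Of the membrane-bound members, Mmp14 (MT1-MMP), which activates pro-Mmp2, was not called in any comparison. It stood at 95.3, 91.9 and 25.8 CPM in C against 85.1, 107 and 81.1 CPM in H, and at 48, 28.1 and 20.5 CPM in CC_s against 18.8, 56.4 and 243 CPM in HC. It stood at 17.9 and 17.7 CPM in CC_l against 71.1 and 92.8 CPM in HH, which were separated, and at 48.5 and 48.3 CPM in CCC against 245 and 18.4 CPM in HHC. The mice HC 3 and HHC 1 stood far above the others of their groups. The log2 fold changes were 0.36, 1.72, 2.2 and 1.44 in the order H, HC, HH and HHC (adjusted p = 0.86, 0.571, 0.275 and 0.625).

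Mmp23, a membrane-anchored member that is released by its own activation, was called higher in HC. It stood at 13.9, 12.3 and 7.86 CPM in CC_s and at 37.9, 31.2 and 37.4 CPM in HC (35.5 ± 3.73 CPM, SD, n = 3), without overlap. In edgeR, the log2 fold change was 1.65 (SE 0.566, adjusted p = 0.536), and the call was lost without any 1 of the 6 mice, with RLE scaling and with halved counts. The H and C mice overlapped (20.7, 41.6 and 12.2 against 45.9, 42.8 and 11.7 CPM), the HH mice lay above CC_l (47 and 63.3 against 10.9 and 18.9 CPM) and the HHC and CCC mice overlapped (9.89 and 31 against 21.6 and 59.6 CPM), all without a call. The C mice had 33.5 ± 18.9 CPM (SD, n = 3), about the level of HC, with C 3 alone near the CC_s mice.

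**Figure D4:**
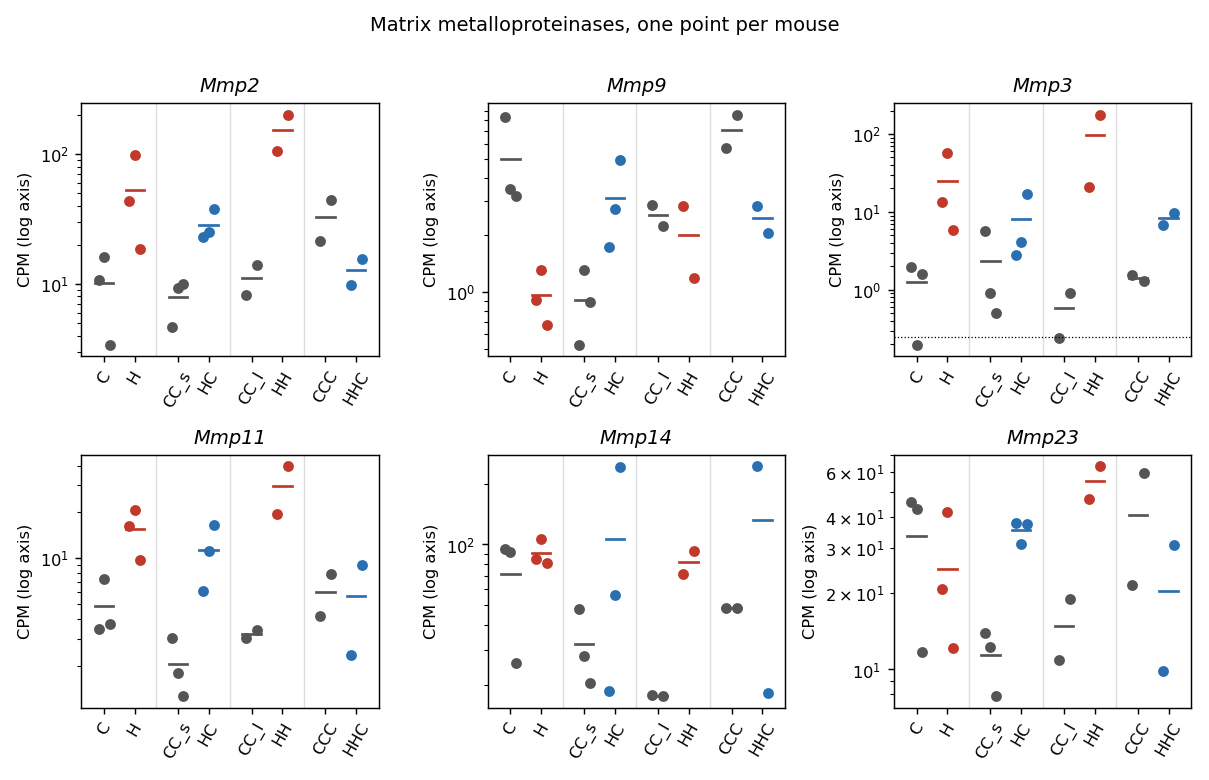
CPM (log axis) of Mmp2, Mmp9, Mmp3, Mmp11, Mmp14 and Mmp23, 1 point per mouse and a line at the group mean, chow groups in grey, HFD groups in red and WL groups in blue; a dotted line marks 0.251 CPM, the highest of the 3-count levels. Mmp2 and Mmp11 of H, HC and HH mice lie above those of the chow mice of their age, and Mmp2 of HHC mice (9.89 and 15.6 CPM) lies below that of CCC mice (21.3 and 43.9 CPM).

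The remaining Mmps were low or not called. Mmp13, the main interstitial collagenase of the mouse, was at 0 in both CC_l mice and at 1.55 and 1.91 CPM in HH, a level at least 12.0-fold higher when CC_l is set to 3 counts per library. It was called in HH (adjusted p = 0.13), but leaving out any 1 of the 4 mice, the block or halved counts ended the call. The other groups held Mmp13 at up to 3.85 CPM (HHC 1) and overlapped with their controls. Mmp7, the matrilysin of epithelia, ranged from 0 in CCC 1 and HHC 1 to 27.7 CPM in C 2 and was separated only in HC (9.58, 11.7 and 8.67 CPM against 0.397, 6.22 and 0.38 CPM in CC_s). Mmp19 ranged from 4.25 to 26.9 CPM and was separated only in HH, upwards and without a call. The uncalled Mmps had log2 fold changes from -3.23 (Mmp16) to 1.18 (Mmp13) in H, from -0.65 (Mmp16) to 2.68 (Mmp17) in HC, from -0.95 (Mmp21) to 2.69 (Mmp27) in HH and from -1.90 (Mmp21) to 2.53 (Mmp3) in HHC, leaving out those with a group at 0.

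Mmp3 and Mmp13 lie in a run of 8 Mmp members on chromosome 9 (7272514 to 7699585, mm10), with Mmp1b, Mmp10, Mmp8, Mmp27, Mmp20 and Mmp7. The members differed widely in level along this stretch, with Mmp3 at up to 176 CPM and Mmp1b at 2 counts in all libraries. Mmp promoters are known for a site of the AP-1 factors and a TATA box close to the start, so the 250 bases before the start of each RefSeq transcript (GRCm38.p6) were searched for TGANTCA and for TATAAA on both strands. The AP-1 letters stood in 6.75% of 32851 promoters and in 6 of the 32 promoters of the 30 members with an entry. These were promoters of Mmp3, Mmp10, Mmp13, Mmp7, Mmp1b and Mmp20, all on chromosome 9. TATAAA stood in 12.4% of all promoters and in promoters of the same 6 members and of Adamts1 and Mmp21. The promoters of Mmp8 and Mmp27, from the same stretch, held neither. Mmp2, Mmp9, Mmp16, Mmp17 and Mmp19 had no entry and were not searched, and the same holds for several Adamts members, Adamts4 and Adamts5 among them.

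The 130 bases before the start are printed for Mmp3, which was called in H and HH, for Mmp13, which was called in HH, and for Mmp10, which was barely counted, to show that all carry both motifs (in capitals, the AP-1 letters first). They are 5′ to 3′ on the plus strand at chr9:7445692-7445821 for Mmp3, chr9:7272384-7272513 for Mmp13 and chr9:7502212-7502341 for Mmp10, with the AP-1 letters beginning 46, 35 and 63 bases before the start.
Mmp3: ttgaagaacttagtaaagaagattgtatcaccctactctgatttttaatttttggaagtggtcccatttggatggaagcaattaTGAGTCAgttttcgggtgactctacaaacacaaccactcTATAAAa
Mmp13: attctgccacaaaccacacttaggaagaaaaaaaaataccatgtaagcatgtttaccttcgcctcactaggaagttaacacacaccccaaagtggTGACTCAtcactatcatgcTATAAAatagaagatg
Mmp10: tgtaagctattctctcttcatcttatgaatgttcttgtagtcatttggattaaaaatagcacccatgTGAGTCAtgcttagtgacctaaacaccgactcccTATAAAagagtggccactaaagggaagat

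Among the Adamts proteases that cut proteoglycans, Adamts4 and Adamts9 were higher and Adamts20 lower in H. Adamts4, an aggrecanase, stood at 3.16, 2.08 and 0.716 CPM in C and at 14.8, 23.6 and 11 CPM in H. The groups were far apart, and the log2 fold change of 3.05 (SE 0.823, adjusted p = 0.0636) was called with each mouse left out. In HC it stood at 1.03, 2.49 and 5.74 CPM against 2.65, 1.39 and 1.27 CPM in CC_s, which overlapped. The HH mice (3.19 and 4.72 CPM) lay above the CC_l mice (1.64 and 0.262 CPM) without a call (log2 fold change 2.01, SE 0.976, adjusted p = 0.296), and the HHC and CCC mice overlapped (0.67 and 0.323 against 0.478 and 1.76 CPM).

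Adamts9, which cuts versican and is known for its part in vessel growth, stood at 20.1, 20.8 and 15.2 CPM in C and at 50.3, 76.9 and 49.8 CPM in H, without overlap. On the log2 scale, the fold change was 1.66 (SE 0.527, adjusted p = 0.112), and the call was lost without C 1, C 2, C 3 or H 2, with RLE scaling and with the block. In the other groups it stood at 26.5, 22.7 and 17.1 CPM (CC_s), 8.38, 17.9 and 45.9 CPM (HC), 16 and 23.8 CPM (CC_l), 47.6 and 28.8 CPM (HH), 11.2 and 42.8 CPM (CCC) and 8.21 and 7.75 CPM (HHC). The HH mice lay above and the HHC mice below their controls, and neither difference was called.

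Adamts20, which cuts versican in skin, was scarce and lower on HFD. It stood at 3.81, 2.33 and 0.895 CPM in C and at 0.152, 0.0543 and 0.096 CPM in H, where the H values were 2 to 4 counts and may be 1 or 2 fragments each. The fitted log2 fold change of -4.48 (SE 1.07, adjusted p = 0.0413) was called with each mouse left out. In HH it stood at 0.0911 and 0.272 CPM against 1.34 and 0.786 CPM in CC_l, separated but not called (log2 fold change -2.52, SE 1.2, adjusted p = 0.293). In HHC both mice were at 0 against 0.358 and 0.987 CPM in CCC, at least 3.26-fold lower with HHC set to 3 counts per library. That difference was called (adjusted p = 0.216), except without HHC 2 or without the filter on low counts.

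Adamts1 and Adamts5, neighbours on chromosome 16, were the most abundant Adamts proteases per length, and Adamts1 was higher after long HFD and lower after long HFD with WL. Adamts1 stood at 15.2 and 26.1 CPM in CC_l and at 97.1 and 62.2 CPM in HH, and at 58.1 and 135 CPM in CCC and 12.1 and 19.5 CPM in HHC. Both pairs of groups were separated, in opposite directions. Its log2 fold change was 1.95 (SE 0.495, adjusted p = 0.0496) in HH and -2.62 (SE 0.508, adjusted p = 0.161) in HHC. The HH call was lost without CC_l 1 or HH 1, and the HHC call held with each mouse left out, at -1.88 without CCC 2. The CCC mice themselves stood above the CC_l mice.

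In the short arm, Adamts1 stood at 77.6, 70.9 and 47.4 CPM in C against 83.3, 115 and 80.2 CPM in H, and at 81.3, 55.9 and 55.8 CPM in CC_s against 21.2, 42.3 and 43.4 CPM in HC. It was thus separated upwards in H and downwards in HC, without a call in either (log2 fold changes 0.51 and -0.85, adjusted p = 0.535 and 0.571). Adamts5 stood at 414, 466 and 360 CPM in C and at 728, 707 and 748 CPM in H (728 ± 20.3 CPM, SD, n = 3), without overlap, and the log2 fold change of 0.82 (SE 0.399, adjusted p = 0.309) did not reach a call. It overlapped in HC (539, 581 and 426 against 507, 457 and 376 CPM) and in HH (928 and 640 against 261 and 701 CPM), and in HHC (289 and 372 CPM) lay below CCC (388 and 661 CPM).

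Adamts2, the enzyme that removes the amino-terminal propeptide of fibrillar procollagens, was called higher on both lengths of HFD. It stood at 41.8, 44 and 28.7 CPM in C and at 99, 213 and 63.8 CPM in H, and at 27 and 51 CPM in CC_l and 147 and 230 CPM in HH. The HFD mice lay above the chow mice of their age. In edgeR, the log2 fold change was 1.71 (SE 0.437, adjusted p = 0.0503) in H, and 1.09 without H 2, where the call was lost, and 2.27 (SE 0.546, adjusted p = 0.0406) in HH, lost without CC_l 1. In HC it stood at 52.6, 43.9 and 52 CPM against 30.8, 36.7 and 26.2 CPM in CC_s and in HHC at 19.4 and 41.9 CPM against 42.5 and 72.1 CPM in CCC, separated upwards in HC and downwards in HHC and not called in either. Adamts3 and Adamts14, which have the same substrates, were not called in any comparison and lay at 0 to 1.87 CPM and 0.323 to 5.21 CPM.

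Adamts7, a protease of cartilage oligomeric matrix protein, stood at 4.14, 5.5 and 1.43 CPM in C and at 11.7, 16.1 and 10.3 CPM in H, without overlap. Its log2 fold change of 1.78 (SE 0.586, adjusted p = 0.127) was called, but of all H calls it was the one most often lost: without C 1, C 3, H 1, H 2 or H 3, with RLE scaling, without the filter, with only the compared groups and with the block. Its level was also separated upwards in HC (3.37, 4.34 and 8.22 against 2.51, 1.06 and 1.65 CPM) and in HH (11.5 and 8.44 against 2.86 and 2.23 CPM) without a call, and overlapped in HHC (2.85 and 3.02 against 2.51 and 8.45 CPM).

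Adamts10, which binds fibrillin microfibrils, was lower in HHC. It stood at 8.12 and 27.1 CPM in CCC and at 3.85 and 3.66 CPM in HHC, and elsewhere between 3.54 and 17.3 CPM with overlap in each comparison. On the log2 scale, the fold change was -2.23 (SE 0.692, adjusted p = 0.276), and without CCC 2 it was -1.12 and not called; the call was also lost without HHC 1 or HHC 2 and with only the compared groups. Adamts18, at 0 in both CC_l mice and at 1 and 0.726 CPM in HH, was called there at least 6.01-fold higher (adjusted p = 0.135), a call that was lost without any 1 of the 4 mice, with the block and with halved counts. It was at 0 in both HHC mice as well, without a call.

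**Figure D5:**
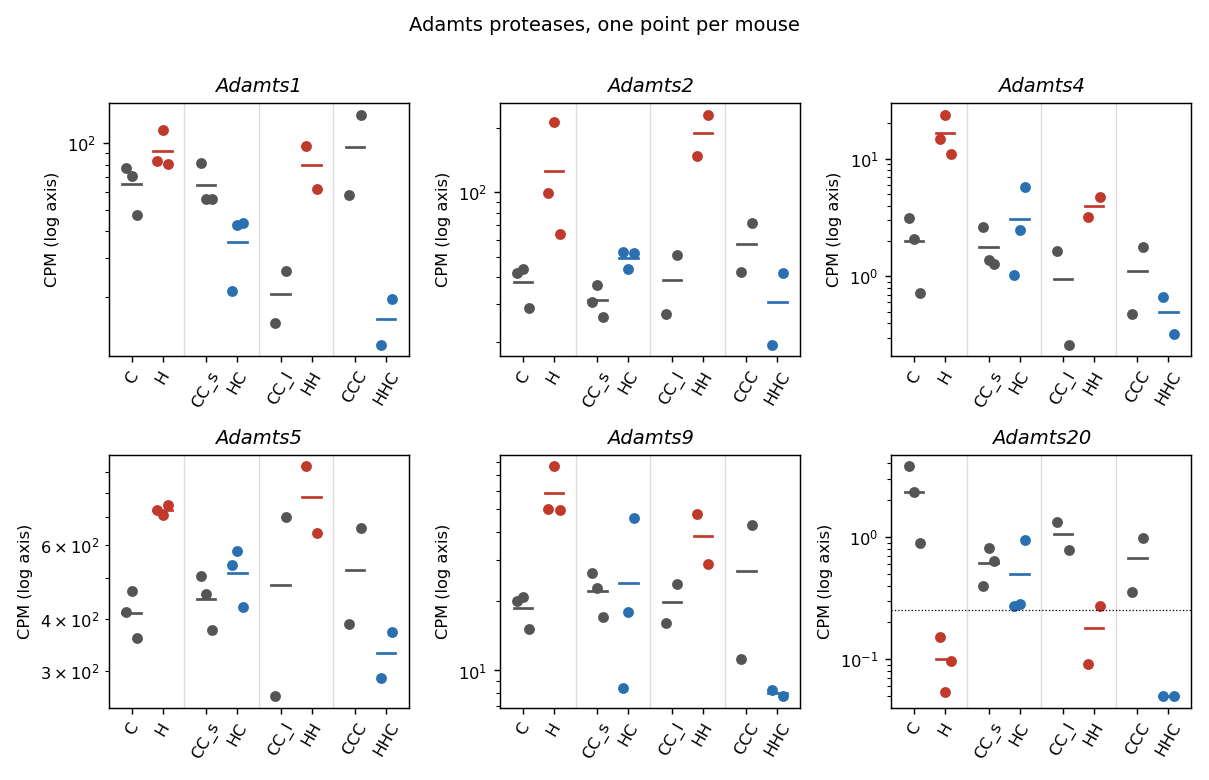
CPM (log axis) of Adamts1, Adamts2, Adamts4, Adamts5, Adamts9 and Adamts20, 1 point per mouse and a line at the group mean, chow groups in grey, HFD groups in red and WL groups in blue; values of 0 are drawn at 0.05 and a dotted line marks 0.251 CPM, the highest of the 3-count levels. Adamts1 of HH mice lies above that of CC_l mice and Adamts1 of HHC mice (12.1 and 19.5 CPM) below that of CCC mice (58.1 and 135 CPM).

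All 18 tested Adamts members had a fitted log2 fold change below 0 in HHC, where 52.1% of all genes did, and 3 of them were called. This count is a description of a pair of mice against a pair, CCC 2 being the higher control mouse for 15 of the 18, and Adamts14 changed sign with RLE scaling and in DESeq2. In HH, 16 of the 18 were above 0 and 2 below, where 57.3% of all genes were below 0. The uncalled Adamts members ranged from -2.34 (Adamts19) to 2.26 (Adamts18) in H, from -3.61 (Adamts16) to 1.61 (Adamts7) in HC, from -2.52 (Adamts20) to 2.01 (Adamts4) in HH and from -4.49 (Adamts8) to -0.12 (Adamts14) in HHC, leaving out those with a group at 0. The summed endothelial markers were lower in the same HHC libraries (107 and 119 CPM against 289 and 597 CPM in CCC). So were those of smooth muscle and pericytes (329 and 220 against 461 and 408 CPM) and of mesothelium (64.8 and 104 against 109 and 434 CPM). In edgeR, a nominal p under 0.05 was reached by 7 of 8 endothelial, 5 of 7 mesothelial, 4 of 10 progenitor and fibroblast and 0 of 8 smooth muscle and pericyte markers. The share of all genes at this threshold in HHC was not counted. The part of these cells in the Adamts values was not tested.

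Whether an effect differed between HFD and WL was tested as a difference of log2 fold changes in the same edgeR fit. In the long arm, the HHC effect was lower than the HH effect for 3 members at an adjusted p under 0.05 (0.815% of genes), namely Timp3 (difference -4.58, SE 0.915, adjusted p = 0.0339), Adamts1 (-4.57, SE 0.708, adjusted p = 0.0179) and Mmp2 (-5.14, SE 1.05, adjusted p = 0.0354). Adamts2 (-3.17, adjusted p = 0.059) and Mmp11 (-3.27, adjusted p = 0.114) lay beyond the threshold. A nominal p under 0.05 was reached by 17 members here, where 15.5% of genes reached it. These differences set 4 pairs of mice against each other, and those of Timp3, Adamts1 and Mmp2 each lost their call without CC_l 1, CC_l 2, HH 1, CCC 2 or HHC 1, when the fit held only the compared groups and with the replicate number as a block.

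In the short arm no member's HC effect differed from its H effect at an adjusted p under 0.05 in edgeR (0% of genes). DESeq2 called 1 of 33 members, beside 400 of all genes. In edgeR, 5 members had a nominal p under 0.05 (11.8% of genes). The smallest p was that of Mmp9, with a difference of 4.14 (SE 0.922, adjusted p = 0.325). The HH and H effects did not differ for any member either (0% of genes at an adjusted p under 0.05 in edgeR, 0 members in DESeq2), with 4 members at a nominal p under 0.05 (5.79% of genes). Nor did the HHC and HC effects (0% of genes, 0 members in DESeq2), with 14 members at a nominal p under 0.05 (11.8% of genes). The sample descriptions carry the prefix S086 in the short arm and S087 in the long arm, so that duration and whatever these prefixes stand for cannot be told apart in the last pair of tests.

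The genes around these proteases were counted on lists of the same pathway. Of 14 tested substrates, 8 were called higher in H, led by Col3a1 (log2 fold change 2.7), Col1a1 (2.67) and Bgn (2.21), and 11 in HH, led by Fn1 (3.59), Col1a1 (3.47) and Col3a1 (3.41). None was called in HC, where 2 had a nominal p under 0.05 in edgeR, and 4 were called lower in HHC, led by Vwf (-3.11), Eln (-2.54) and Lama4 (-1.76). Among the sheddases of the Adam family, Adam8 was called higher in H (2.95), HC (3.78) and HH (3.4), where 5 of 7 were called, among them Adam12 (3.58) and Adam10 (2.27). Ctsk, the collagen-cutting lysosomal cathepsin K, was called higher in H (2.56), HC (2.65) and HH (3.23), and Fap (3.00) and Htra1 (1.86) were called in HH beside it.

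Of the activators, none of 7 tested genes of the plasminogen system and none of 7 convertases was called in H or HC, where 1 gene of each list had a nominal p under 0.05 in H and 0 in HC in edgeR. In HH, Plaur (3.23) and Plat (2.22) of the first and Pcsk5 (1.76) and Bsg (1.32) of the second were called higher, and in HHC Plat (-1.82) and Bmp1 (-2.58), the carboxy-terminal procollagen proteinase, were among those called lower. Of 13 other inhibitors and clearance genes, Thbs1 was called higher in H (1.58) and HH (2.63), Thbs2 (4.05) and Adamtsl3 (3.23) in HH, and Adamtsl5 lower in H (-1.58). In HHC, 4 were called lower, with Adamtsl2 (-3.84), Adamtsl3 (-2.68) and Papln, which had 0 and 1 counts in the HHC mice, among them. The counts of all these lists stand beside the macrophage and endothelial markers given above, which did not move alike in every comparison. No endothelial marker was called in HC and no macrophage marker in HHC. The part of these cells in the lists was not tested.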

How the data were processed

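TRAP–seq libraries of 20 mice (8 groups, taken from the labels) were read from the gene counts the authors deposited, whole numbers that were not normalized. Per the submitters' processing notes, FastQC 0.11.9, Trim Galore 0.6.6, HISAT2 2.2.1, Subread 2.0.1 and mm10 were used; the annotation and the strand setting of the counting are not given in the sources used here. Symbols were matched for 98.2% of the genes.

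All genes were fitted together in edgeR 4.0.16 (R 4.3.3; filterByExpr, TMM, quasi-likelihood test, 1 coefficient per group), which left 21464 genes, and p-values were adjusted by the Benjamini-Hochberg method over all of them. Every diet or WL group was set against its own chow group, and differences of effects were tested as contrasts. A fold against a group at 0 was computed against 3 counts per library. CPM per kb used the merged exon length. Genes were named as members called in any comparison, the 4 Timps, and the 3 Mmp and 3 Adamts members highest per length, and of other lists at most 3 called genes per direction. The members and lists were chosen with earlier results of these data known. Alternatives were DESeq2 1.42.0, RLE scaling, no filter, only the compared groups, the replicate number as a block, adjusted p-values as the threshold, halved counts and each mouse left out. The replicate numbers did not pair the mice. The fit was tested on simulated data. Figures were drawn with matplotlib 3.10.9. A further Mmp gene is not reported here.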

Additional observations from a re-analysis of the deposited data

Results flagged for a closer look

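A test of the difference between the WL effect and the HFD effect in the long arm (HHC against CCC, less HH against CC_l) singled out 3 members. The log2 difference was -4.58 for Timp3, -4.57 for Adamts1 and -5.14 for Mmp2, with adjusted p = 0.0339, 0.0179 and 0.0354 in edgeR. In all 3 genes both HH mice lay above both CC_l mice and both HHC mice lay below both CCC mice. For Timp3 the value ranged from -5.24 to -3.62 with each mouse left out and lost its call in 6 of 8 fits, for Adamts1 from -5.07 to -3.85 with 5 of 8 lost, and for Mmp2 from -5.59 to -4.55 with 7 of 8 lost. Each group had 2 mice, the CCC mice stood above the CC_l mice in all 3 genes, and the summed endothelial and smooth muscle markers were higher in HH and lower in HHC in the same libraries, and the mesothelial markers lower in HHC. Their part in the differences was not tested.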

How the results depend on the processing

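No fold change of a called member and no difference of effects reversed in any alternative run. The count of members called in HC, 3 in edgeR, was 5 in DESeq2, 7 without the filter on low counts, 0 with an adjusted p under 0.05 as the threshold and 1 without C 1, HC 3 and CC_l 1. These 3 libraries were chosen after seeing the data. C 1 had the most epididymal marker RNA (1820 CPM), and CC_l 1 and HC 3 the most spermatid RNA (3460 and 525 CPM). H 2, with 1050 CPM of epididymal markers, was kept in this run. The H count of 10 was 2 and the HHC count of 4 was 0 with the adjusted threshold, the HHC count was 1 with only the compared groups, and the HH count of 10 was 6 without the 3 libraries. The 3 members whose HHC and HH effects differed became 6 in DESeq2, 1 with RLE scaling, 10 without the filter, and 0 with only the compared groups, with the replicate block and without the 3 libraries. The differences with 0 members became 1 in DESeq2 and 4 without the filter for HC less H, 2 without the filter for HH less H and 3 for HHC less HC. With each mouse left out, the counts ranged from 3 to 9 in H (3 without H 2, 6 without C 1), 1 to 4 in HC (1 without CC_s 3 or HC 3), 5 to 7 in HH (5 without CC_l 1, 6 without HH 1) and 2 to 5 in HHC (2 without CCC 2), from 0 to 4 for HHC less HH and from 0 to 0 for the other differences. Where this left 1 mouse in a group, it was assumed to vary like the other groups. With the replicate number as a block, 8, 4, 8 and 3 members were called in H, HC, HH and HHC. Same-numbered mice did not deviate together (correlations -0.277 to 0.192), and with crossed numbers in the long arm 9 and 3 members were called in HH and HHC. Levels below 0.0815 to 0.251 CPM, 3 counts, could not be read. The spread between mice and the 2 mice per group of the long arm limit the precision.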
